A study of Mus musculus with 11 samples.

Results

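The small leucine-rich proteoglycans (SLRPs) measured here were 9 genes, Dcn, Lum, Bgn, Fmod, Ogn, Aspn, Prelp, Omd and Podn, listed by name and found by symbol among the 27998 genes of the 10X Chromium count tables. All 9 were present under 1 identifier each. Their transcripts were followed in mesenchymal cells sorted from mouse liver. The cells came from male Pdgfrb-BAC-eGFP mice on a C57BL/6 background, 10 to 16 weeks old, whose PDGFRβ-expressing cells carry GFP, and GFP+ cells without CD45 or CD102 were sorted in every group, controls included. Because the reporter defines the sort, cells without an active Pdgfrb transgene were not sampled. Of 5 10X libraries, each pooled from 3 mice, a pair was made with digestion protocol 1 (labelled PF), from uninjured mice and from mice given carbon tetrachloride (CCl4, a hepatocyte toxin) for 6 weeks and killed 48 h after the last dose. The other 3 were made with protocol 2 (labelled HSC), from uninjured mice, from mice 72 h after a single CCl4 dose and from mice given CCl4 for 6 weeks. Smart-seq2 plates, read well by well, held cells of uninjured mice, of mice 14 days after bile duct ligation (BDL, which dams bile and injures the portal tracts) and of mice given CCl4 for 6 weeks.

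SLRPs are secreted matrix proteins built around a run of leucine-rich repeats, and many of them bind collagen fibrils, where they influence how fibrils assemble and how wide they grow. The family is split by sequence: decorin (Dcn), biglycan (Bgn) and asporin (Aspn) form one class, lumican (Lum), fibromodulin (Fmod), PRELP (Prelp) and osteomodulin (Omd) a second, osteoglycin or mimecan (Ogn) belongs to another, and podocan (Podn) to a more distant one. Decorin and biglycan carry chondroitin or dermatan sulfate chains, lumican and fibromodulin can carry keratan sulfate, and asporin lacks a chain. In liver, decorin and lumican are deposited with collagen in portal tracts and scars, and the cells that can make them are portal fibroblasts (FBs), the vitamin A-storing hepatic stellate cells (HSCs) of the sinusoids, and the vascular smooth muscle cells (VSMCs) of vessel walls.

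Several of the genes are neighbours in the mouse genome (GRCm38, mm10, positions from the annotation). Dcn (10:97479609-97518143, + strand) is followed by Lum (10:97565128-97572703, + strand). Prelp (1:133910304-133921414, − strand) and Fmod (1:134037254-134048277, + strand) lie side by side on opposite strands. Aspn (13:49544443-49567565), Omd (13:49582462-49592822) and Ogn (13:49608046-49624501) follow each other on the + strand of chromosome 13, after the related gene Ecm2. Bgn (X:73483602-73495933, + strand) and Podn (4:108014791-108096445, − strand) stand apart from the others. Exons of Aspn share bases with Cenpp and exons of Prelp with the antisense gene Gm15851, both on the opposite strand. Levels are given as CPM, counts per 1000000 counts of a group of cells, of unique molecular identifiers (UMIs) in 10X and of reads in Smart-seq2. Cenpp was at 11.2 CPM or less and Gm15851 between 0.366 and 11.6 CPM in every group of 10X cells. The 3′ counts of 10X keep the strand, while for the Smart-seq2 counts its use was not given in the sources used here, so reads of each overlapping pair could not be told apart there.

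RefSeq promoter windows (GRCm38.p6, the 250 bases upstream of the start) were found for 7 of the 9 genes, not for Dcn and Lum. By summed UMIs of uninjured liver, the 3 neighbours on chromosome 13 were highest in FBs, while the neighbours Fmod and Prelp were highest in different classes. For Aspn the margin was narrow, at 769 CPM in FBs and 665 CPM in VSMCs, and the mean over cells placed it highest in VSMCs. In the plate-based assay, with wells summed by mouse and plate, Aspn was higher in FBs than in VSMCs in 0 of 14 sums. A highest level in FBs shared by the 3 neighbours was therefore not settled. The windows of these 3 and of Fmod and Prelp are shown 5′ to 3′ on the strand of the gene.
Aspn (chr13:49544193-49544442): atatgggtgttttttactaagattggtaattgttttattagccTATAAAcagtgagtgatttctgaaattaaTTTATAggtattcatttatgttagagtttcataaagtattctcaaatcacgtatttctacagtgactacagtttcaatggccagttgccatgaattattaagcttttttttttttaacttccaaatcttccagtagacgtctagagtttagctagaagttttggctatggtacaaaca
Omd (chr13:49582212-49582461): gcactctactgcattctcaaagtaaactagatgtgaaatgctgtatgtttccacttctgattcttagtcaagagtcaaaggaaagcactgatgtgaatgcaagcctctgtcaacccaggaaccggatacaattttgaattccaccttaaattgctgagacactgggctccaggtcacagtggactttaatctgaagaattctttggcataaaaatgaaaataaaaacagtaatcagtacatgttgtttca
Ogn (chr13:49607765-49608014): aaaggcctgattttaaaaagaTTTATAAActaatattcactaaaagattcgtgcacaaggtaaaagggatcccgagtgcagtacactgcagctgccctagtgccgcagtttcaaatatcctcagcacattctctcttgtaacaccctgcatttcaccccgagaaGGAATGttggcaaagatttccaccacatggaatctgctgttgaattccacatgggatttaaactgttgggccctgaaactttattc
Fmod (chr1:134037004-134037253): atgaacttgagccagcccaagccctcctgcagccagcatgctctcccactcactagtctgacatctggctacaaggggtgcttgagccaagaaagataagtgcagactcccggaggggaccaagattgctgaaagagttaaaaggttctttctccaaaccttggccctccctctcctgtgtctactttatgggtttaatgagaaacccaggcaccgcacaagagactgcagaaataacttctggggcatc
Prelp (chr1:133921402-133921651): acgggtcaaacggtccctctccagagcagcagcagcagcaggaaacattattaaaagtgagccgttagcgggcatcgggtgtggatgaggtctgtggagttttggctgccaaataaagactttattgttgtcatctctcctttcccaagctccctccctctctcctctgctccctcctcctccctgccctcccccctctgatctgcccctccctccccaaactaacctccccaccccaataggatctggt
Capitals mark motifs found on either strand. TATAAA matched at 2 places in the Aspn window and at 2 overlapping places in the Ogn window, and GGAATG (the TEAD motif) at 1 place in the Ogn window. Of all 27025 promoters of that length, 12.97% held TATAAA and 12.6% GGAATG. The AP-1 motif TGANTCA (6.87% of promoters) and the CArG box (1.40%) matched in none of the 7 windows, and the GC box GGGCGG (32.9%) only in those of Bgn (3 places) and Podn (2 places). These are matches of letters, not sites shown to be bound.

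After cells with fewer than 300 genes or more than 30% mitochondrial UMIs were left out, 5737 and 5648 protocol 1 cells (uninjured and 6 weeks) and 6850, 7310 and 5454 protocol 2 cells (uninjured, 72 h and 6 weeks) remained. The libraries held 25965670 to 86664085 UMIs, with 4300 to 11344 UMIs in the median cell, and any pair of them shared 33 to 74 cell barcodes. Protocol 1 cells were split by the summed level of 6 FB markers against 5 VSMC markers into 4108 FBs and 1629 VSMCs in uninjured liver, and 2701 FBs and 2947 VSMCs after 6 weeks of CCl4. These classes were cut from a per-cell score, and 66 and 73 FBs and 49 and 79 VSMCs lay near the boundary. FB markers summed to 8681 and 9371 CPM in FBs and to 719 and 753 CPM in VSMCs, with a median VSMC at 324 and 519 CPM. VSMC markers summed to 33711 and 29887 CPM in VSMCs and to 657 and 1637 CPM in FBs. HSC markers were at 680 to 761 CPM in FBs and 441 to 561 CPM in VSMCs. In protocol 2, UMIs of at least 4 of 5 HSC markers were found in 99.3%, 92.1% and 95.4% of cells. All cells of protocol 2 are called HSCs here, among them cluster 8 of the 72 h library (203 cells, 2.78%) and cluster 8 at 6 weeks (25 cells, 0.458%), each with an FB marker and no HSC marker among its top 10 genes. The same held for cluster 4 at 6 weeks (Gas6, Ltbp2, Igf1), with 856 cells (15.7%) and the FB marker Dpt. Each level below is the sum of UMIs over a class of cells of 1 library, in CPM, with an exact Poisson 95% interval that covers counting error only. With 1 library for each condition and protocol, no test between 10X groups was possible.

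In uninjured liver, Dcn, Bgn and Prelp were highest in HSCs, and the other 6 SLRPs were highest in FBs. Dcn reached 27498 CPM (27451 to 27546) in HSCs, 15614 CPM (15560 to 15668) in FBs and 1467 CPM (1435 to 1499) in VSMCs. Every HSC and 99.9% of FBs held a Dcn UMI. Biglycan followed the same order at 6570 CPM in HSCs, 3200 CPM in FBs and 1344 CPM in VSMCs. Prelp, which links matrix to basement membranes, followed it too, with 2397 CPM in HSCs, 422 CPM in FBs and 143 CPM in VSMCs. The HSC level stood above the FB level 1.76-fold for Dcn, 2.05-fold for Bgn and 5.69-fold (counting interval 5.56 to 5.81) for Prelp, and above the VSMC level 18.7-fold, 4.89-fold and 16.8-fold. HSCs came from another library and digestion than FBs and VSMCs, so class and protocol cannot be told apart in any comparison with HSCs.

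Lum was at 2585 CPM in FBs, 1510 CPM in HSCs and 285 CPM in VSMCs, a 1.71-fold difference between FBs and HSCs. The remaining genes of the FB-high set were far lower in HSCs. Ogn was at 693 CPM in FBs, 321 CPM in VSMCs and 36.4 CPM in HSCs, and Podn at 242, 23.4 and 38.2 CPM in the same order. Omd was sparse everywhere, at 26.4 CPM in FBs, 4.94 CPM in VSMCs and 3.36 CPM in HSCs, and its VSMC and HSC levels differed by less than the counting interval of their ratio (0.450 to 1.07).

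Fmod and Aspn were barely counted in uninjured HSCs. Fmod was at 144 CPM in FBs and 39.5 CPM in VSMCs against 0.302 CPM in HSCs, where 14 UMIs were counted in 6850 cells. Aspn was at 769 CPM (757 to 782) in FBs and 665 CPM (643 to 687) in VSMCs against 2 UMIs in all HSCs, 0.0431 CPM (0.00522 to 0.156). An Aspn UMI was found in 56.6% of FBs and 80.2% of VSMCs, and in 43.1% and 67.5% of those cells after thinning to 2000 UMIs, against 0.0292% of HSCs. Thus FBs held more Aspn in sum while more of the VSMCs held it, and the per-cell mean placed Aspn highest in VSMCs. Among the SLRPs, only Aspn was at similar levels in FBs and VSMCs and at almost none in HSCs.

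**Figure D1:**
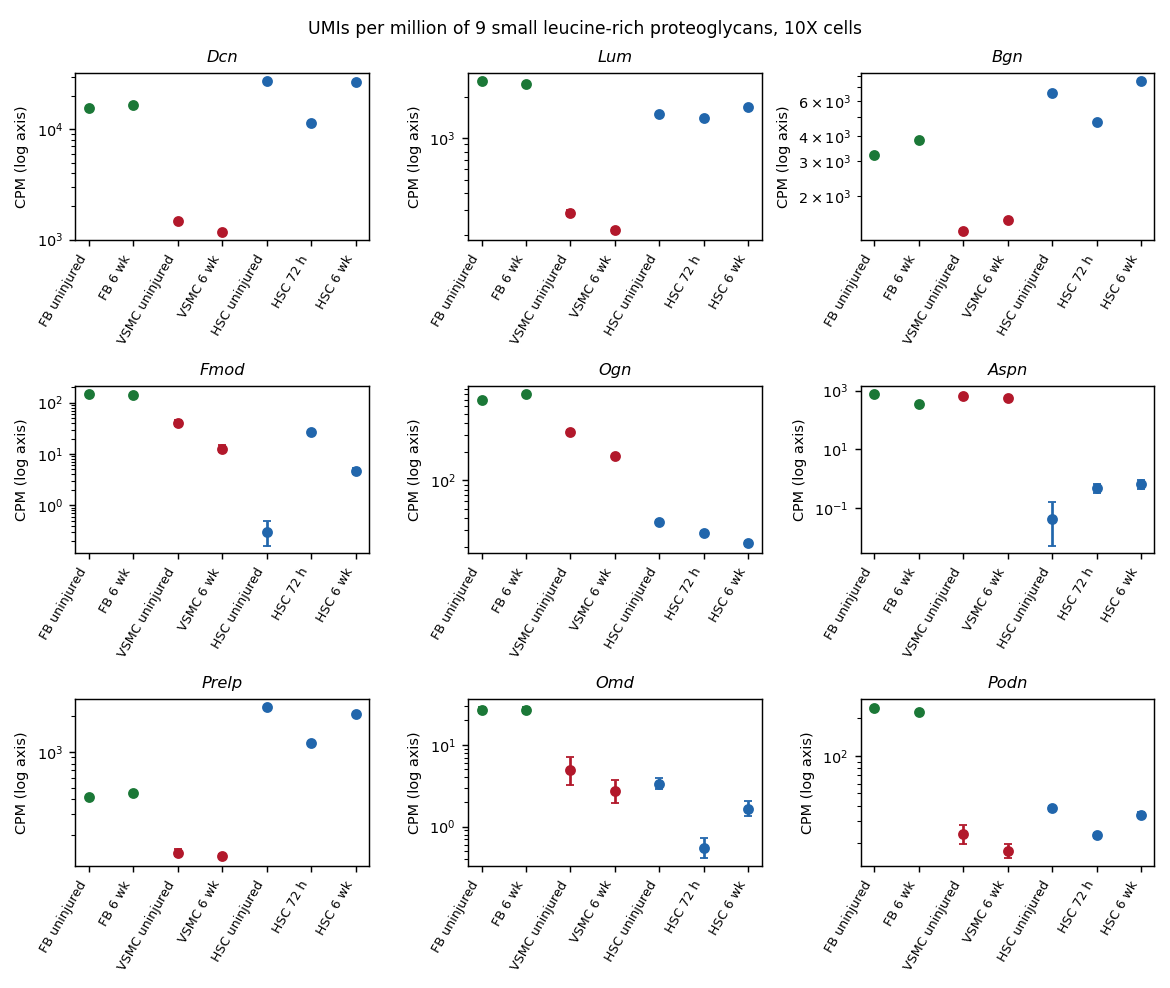
Level of each SLRP (CPM, log axis) in the 7 groups of 10X cells, with 1 point per group and exact Poisson 95% intervals. Among the uninjured groups, Dcn, Bgn and Prelp sit highest in HSCs, while Aspn and Fmod lie under 1 CPM there and at 769 and 144 CPM in FBs.

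The VSMC levels of the SLRPs were set beside those of the FB markers in VSMC barcodes. The same 6 FB markers had set the class cut, so VSMCs were chosen for low levels of them. A level above theirs therefore does not show expression by VSMCs. In uninjured VSMCs the 6 FB markers were at 6.08% to 11.3% of their FB level, and Dcn (9.39%), Podn (9.67%) and Lum (11.0%) were within that range. Omd (18.7%), Fmod (27.4%), Prelp (33.8%), Bgn (42.0%), Ogn (46.3%) and Aspn (86.4%) were above it. VSMC cluster 7 (Ednrb and Wisp2 among its leading genes) and cluster 8 (led by Sfrp1, Angptl7 and Ptn) held much of the Dcn. Cluster 8 was at 9635 CPM Dcn, and 116 of its 145 cells were called doublets. Without both, the FB markers were at 2.53% to 8.59% of their FB level, with Dcn at 2.55%, Podn at 3.51%, Lum at 3.93% and Fmod at 5.59%. Omd (12.9%), Prelp (24.3%), Bgn (37.0%), Ogn (42.8%) and Aspn (89.0%) stayed above the markers. Omd rested on few UMIs, 27 in all uninjured VSMCs with 11 of them in cluster 8, so its place is uncertain. By this comparison, expression by VSMCs could not be told apart from transcripts of other cells, least of all for Dcn, Lum, Podn, Fmod and the sparse Omd.

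Within VSMCs, Ogn divided the clusters, here summed over both libraries. Cluster 1 (Myl1, Otud1, Dpysl3) was at 394 CPM, cluster 5 (Abhd2, Notch2, Slc39a1) at 393 CPM and cluster 3 (Dbp, 2900026A02Rik, Susd2) at 222 CPM. Cluster 2 (Nrgn, Gpbar1, AW011738) was at 46.9 CPM, cluster 4 (Abhd2, Notch2, Jag1) at 38.0 CPM and cluster 6 (Fabp7 and Tspan15 among its leading genes) at 28.6 CPM. Aspn varied far less over the same 6 clusters, between 507 and 746 CPM, and Bgn lay between 1107 and 1496 CPM. The clusters were made from these cells, so the differences between them are descriptions.

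FBs were divided into 8 clusters, and the SLRPs differed in how evenly they were spread over them, with levels summed over both libraries. Dcn ranged from 9287 to 18450 CPM, lowest in cluster 8 (Slpi, Saa3, Rgs5), where 87 of 144 cells were called doublets. Lum ranged from 1262 to 3069 CPM and Bgn from 2029 to 5199 CPM, the latter highest in cluster 7 (Wif1, Notum, Ctla2a). Fmod was concentrated in cluster 3 (Colec11, Igfbp3, Plxna4) at 378 CPM and lay at 7.202 CPM in cluster 5 (Krtdap, Efhd1, Dact2). Cluster 3, whose top gene Colec11 is an HSC marker, also had the highest Prelp at 734 CPM. Ogn had its highest level of 1001 CPM in cluster 2 (Cxcl13, Gm13305, Gdf10) and its lowest of 134 CPM in cluster 7. Podn was at 63.1 CPM in cluster 5 and between 90.7 and 305 CPM elsewhere.

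Aspn was highest in cluster 5, where Fmod was lowest. It reached 1863 CPM in cluster 5, 816 CPM in cluster 6 (Cxcl14, Apod, Kcnk2) and 728 CPM in cluster 1 (Thbs4, Avpr1a, Prg4), and lay between 138 and 492 CPM in the other 5. In uninjured liver, cluster 5 held 404 FBs, or 9.83% of the class, and 41.0% of the Aspn UMIs of FBs. The same cells held 7.59% of Dcn UMIs and 0.473% of Fmod UMIs. Cluster 1, the largest, was above the FB level of Fmod (153 against 144 CPM) and near that of Aspn (756 against 769 CPM) in uninjured liver.

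**Figure D2:**
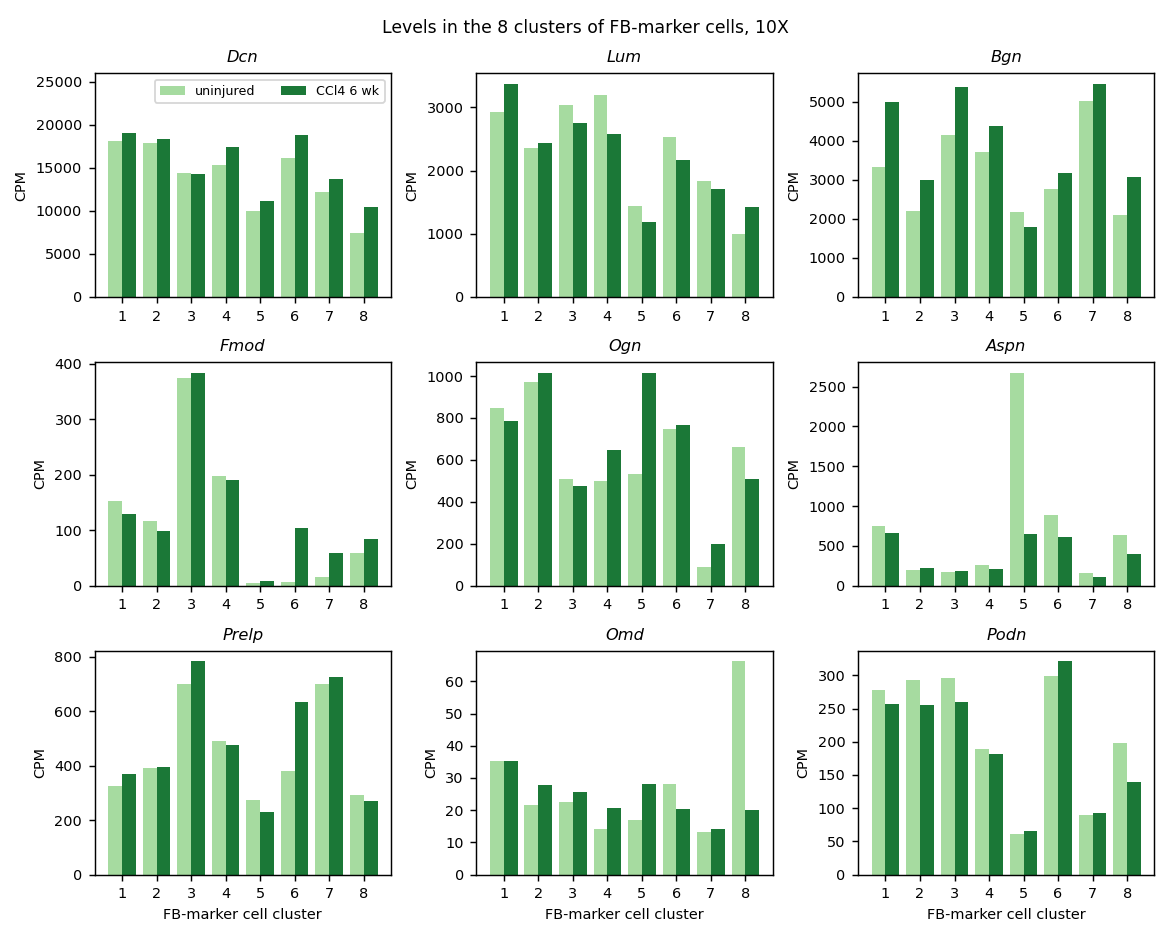
Levels of SLRPs (CPM, linear axes) in the 8 FB clusters of protocol 1, in uninjured liver and after 6 weeks of CCl4. Aspn in cluster 5 is at 2674 CPM in uninjured liver and 643 CPM after CCl4, and Fmod is highest in cluster 3 in both libraries.

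The next comparison asked how the SLRPs stood in FBs after 6 weeks of CCl4. Most were close to their uninjured level. Dcn was at 15614 CPM in uninjured FBs and 16783 CPM after CCl4, Lum at 2585 and 2475 CPM, Prelp at 422 and 453 CPM, Fmod at 144 and 142 CPM, Omd at 26.4 and 26.9 CPM and Podn at 242 and 223 CPM. Bgn (3200 and 3824 CPM, 1.20-fold, counting interval 1.18 to 1.21) and Ogn (693 and 799 CPM, 1.15-fold, 1.13 to 1.18) were slightly higher. Bgn was higher in 7 of 8 FB clusters, all but cluster 5.

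Aspn was the exception, at 769 CPM in uninjured FBs and 360 CPM (351 to 369) after CCl4, 2.14-fold lower (counting interval 2.08 to 2.20). As a rule of size, a gene was called when the levels differed at least 2-fold and the higher was at least 50 CPM. Of 8 SLRPs with 50 CPM in either library, 1 was called, and it was lower. Of all 3106 genes tested in FBs, 1.32% were called, 0.998% higher and 0.322% lower. The median log2 fold was 0.04 for the SLRPs and −0.04 for all genes. Most of the Aspn difference lay in cluster 5, which went from 2674 to 643 CPM (4.16-fold lower) as its share of FBs went from 9.83% to 7.37%. Without cluster 5, Aspn was at 515 and 331 CPM, 1.55-fold lower and no longer called. Cluster 1 was at 756 and 668 CPM, cluster 6 at 889 and 616 CPM, and clusters 2 and 3 were slightly higher after CCl4 (203 and 220 CPM, 174 and 190 CPM). Aspn was also under 2-fold with the per-cell mean and after thinning. VSMC markers moved with this comparison, 4 of 4 tested being higher in FBs after CCl4, and their part in it was not tested.

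In VSMCs, none of 6 SLRPs tested passed the rule after 6 weeks of CCl4, while 2.46% of 2964 genes did, 2.13% higher and 0.337% lower. The median log2 fold was −0.30 for the SLRPs and 0.02 for all genes. Ogn had the widest difference among them, from 321 to 179 CPM, 1.79-fold lower (counting interval 1.68 to 1.91). Aspn was at 665 and 550 CPM (1.21-fold lower), Prelp at 143 and 134 CPM and Bgn at 1344 and 1521 CPM (1.13-fold higher). Different clusters held most VSMCs in the 2 libraries. Clusters 1, 2 and 5 held 1413 of 1629 uninjured VSMCs, and clusters 3, 4 and 6 held 1821 of 2947 after CCl4. Clusters 2, 4 and 6, the lowest in Ogn, held 30.3% of uninjured VSMCs and 49.1% after CCl4. The part of these shares in the Ogn difference was not tested. Within clusters, Ogn was at 419 and 340 CPM in cluster 1, 433 and 376 CPM in cluster 5 and 366 and 219 CPM in cluster 3 (33 UMIs in 31 uninjured cells), and in cluster 2 it was higher after CCl4, at 30.9 and 62.8 CPM. Dcn was at 1467 and 1176 CPM and Lum at 285 and 214 CPM, but without clusters 7 and 8 both directions turned, to 399 and 587 CPM for Dcn and 102 and 130 CPM for Lum. Fmod (39.5 and 12.7 CPM), Omd (4.94 and 2.73 CPM) and Podn (23.4 and 17.2 CPM) were too low for the rule.

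In HSCs, the acute injury was the condition in which Dcn stood apart. Dcn was at 27498 CPM in uninjured HSCs, 11393 CPM (11371 to 11416) at 72 h and 26824 CPM (26780 to 26869) after 6 weeks. At 72 h it was 2.41-fold lower than in uninjured HSCs (counting interval 2.41 to 2.42), and every HSC still held a Dcn UMI. The median cell went from 27102 to 10896 CPM, with lower and upper deciles of 17837 and 36851 CPM in uninjured liver and 5282 and 19739 CPM at 72 h. Prelp was nearly as far lower, at 2397, 1203 and 2106 CPM, 1.99-fold lower at 72 h (1.98 to 2.01) and just under the rule. Bgn was at 6570, 4695 and 7524 CPM, 1.40-fold lower at 72 h. Lum was nearly level, at 1510, 1401 and 1696 CPM. Over the clusters of the 6-week library, Lum ranged from 817 CPM in cluster 8 to 3175 CPM in cluster 4. Of 4 SLRPs tested at 72 h, 1 was called, and it was lower. That call has a wide background, since 17.9% of all 3356 genes tested were called at 72 h, 7.42% higher and 10.5% lower. At 6 weeks none of the 4 was called, against 5.1% of 3233 genes, 3.4% higher and 1.7% lower. The median log2 fold of the SLRPs was −0.74 at 72 h (all genes −0.15) and 0.07 at 6 weeks (all genes −0.21). Scaling by TMM in place of the UMI total raised every log2 fold in HSCs by 0.16 at 72 h and 0.19 at 6 weeks, and Dcn at 72 h was still called.

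Other properties of the libraries moved with the Dcn difference. The median HSC held 6718 UMIs in uninjured liver, 11344 at 72 h and 9893 at 6 weeks. HSC markers summed to 24588, 4298 and 12068 CPM and heat shock genes to 3622, 1437 and 3548 CPM, so both were lowest in the library with the lowest Dcn. Their part in the result was not tested. Over the clusters of the 72 h library, Dcn ranged from 5705 CPM in cluster 8 (Clec3b, Pi16, Mfap5) to 17546 CPM in cluster 4 (Clec4g, C6, Rgs4). It was at 7591 CPM in cluster 6 (Apoa1, Ccnb2, Cenpa). No cluster reached the uninjured sum of 27498 CPM. In the uninjured library itself, clusters 4 and 5 were at 19912 and 16977 CPM, and the others lay between 27781 and 28481 CPM.

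**Figure D3:**
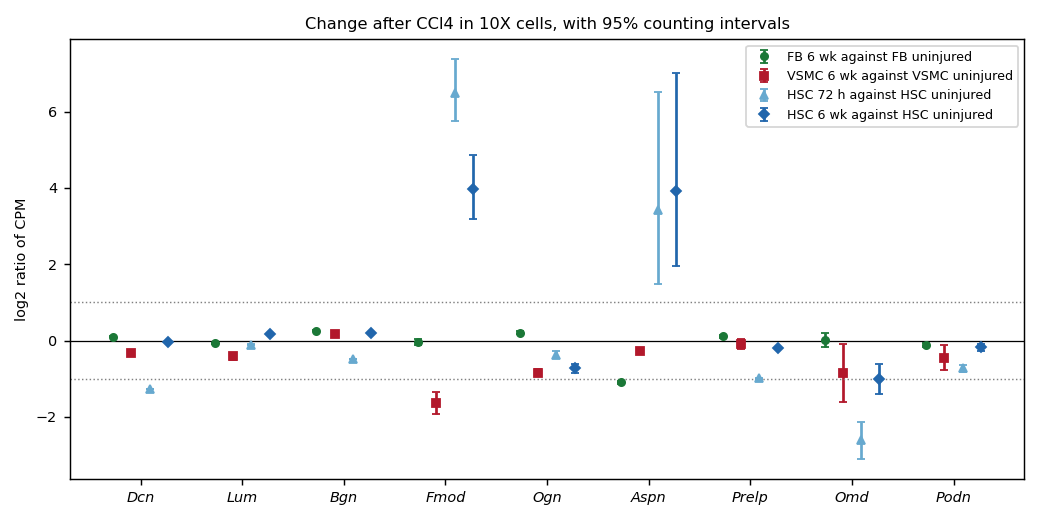
Log2 fold of each SLRP against the uninjured library of the same class and protocol, with counting intervals, in FBs and VSMCs at 6 weeks and in HSCs at 72 h and 6 weeks. Aspn in FBs and Dcn in HSCs at 72 h lie beyond −1, and genes under 50 CPM in both groups, such as Fmod in HSCs, are not called.

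Fmod, which supports fibril assembly, had the largest ratios in HSCs after injury. It was at 0.302 CPM (0.165 to 0.506) in uninjured HSCs, 27.2 CPM (26.1 to 28.3) at 72 h and 4.69 CPM (4.12 to 5.32) at 6 weeks, 90.2-fold (53.6 to 165) and 15.5-fold (9.09 to 28.9) above the 14 UMIs of the uninjured library. These levels were under 50 CPM, so the rule did not apply. A Fmod UMI was found in 0.175% of uninjured HSCs, 15.6% at 72 h and 3.10% at 6 weeks, and in 0.0742%, 3.94% and 0.862% after thinning to 2000 UMIs. Cluster 8 of the 72 h library, 203 cells led by the FB marker Clec3b, was at 226 CPM, and cluster 1 (Meg3, Plagl1, Cthrc1) at 36.5 CPM. Without clusters led by genes of another class Fmod was at 20.05 CPM at 72 h, and without cells holding 3 or more FB markers at 18.9 CPM. FB markers summed to 30.5 CPM in uninjured HSCs, 295 CPM at 72 h and 545 CPM at 6 weeks.

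The other sparse SLRPs gave small counts in HSCs. Aspn had 2, 40 and 34 UMIs in the 3 libraries, 0.0431, 0.462 and 0.651 CPM. Cluster 8 held 37 of the 40 UMIs at 72 h (12.3 CPM) and the 25 cells of cluster 8 at 6 weeks held 20 of the 34. Without these clusters Aspn was at 0.0359 CPM at 72 h and 0.270 CPM at 6 weeks. Omd was at 3.36, 0.554 and 1.67 CPM, 6.07-fold lower at 72 h (4.37 to 8.58). Podn was at 38.2, 23.1 and 33.7 CPM and Ogn at 36.4, 28.0 and 21.9 CPM.

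HSCs differ along the lobule, and each library was split by a score of the study's own lists of 52 portal and 27 central genes, chosen on these samples, into portal-like and central-like cells. Lum and Podn were in the central list and were left out of the score. The central-like share was 57.1% of uninjured HSCs, 76.3% at 72 h and 69.7% at 6 weeks, with 811, 522 and 500 cells near the cut. The genes were scaled and the cut was placed within each library. The shares are therefore not on a common scale and do not measure a change in zones. Podn was 4.21-fold higher in central-like than in portal-like HSCs of uninjured liver (57.1 and 13.6 CPM), 4.29-fold at 72 h (27.6 and 6.43 CPM) and 5.97-fold at 6 weeks (44.7 and 7.48 CPM). Lum was 1.55-fold higher centrally in uninjured liver (1784 and 1152 CPM), 1.57-fold at 72 h (1517 and 964 CPM) and 2.47-fold at 6 weeks (2057 and 832 CPM). Since the study had listed both genes as central, their direction is not independent evidence.

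Dcn changed sides. It was higher in central-like HSCs of uninjured liver (30283 against 23868 CPM), lower there at 72 h (10651 against 14184 CPM) and slightly higher at 6 weeks (27381 against 25489 CPM). The 72 h level was 2.84-fold below the uninjured one in central-like and 1.68-fold below it in portal-like HSCs. Because the zones were cut anew in each library, these folds compare groups that need not hold the same kinds of cells. Prelp was lower in central-like cells in all 3 libraries, at 2241 against 2601 CPM, 1117 against 1524 CPM and 1876 against 2659 CPM. Bgn differed by at most 1.23-fold between the zones, at 6 weeks (7969 against 6458 CPM). Ogn was higher centrally in uninjured liver (44.8 and 25.4 CPM) and at 72 h (32.3 and 11.8 CPM) but nearly level at 6 weeks (22.6 and 20.4 CPM).

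**Figure D4:**
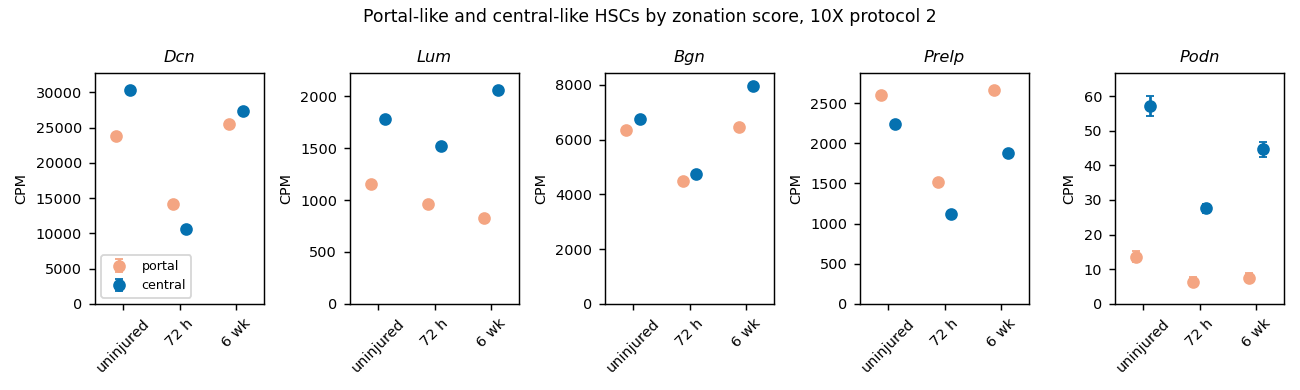
Levels of Dcn, Lum, Bgn, Prelp and Podn (CPM, linear axes) in portal-like and central-like HSCs of the 3 protocol 2 libraries, with exact Poisson 95% intervals. Dcn is higher in central-like cells of uninjured liver and lower in them at 72 h, while Lum and Podn are higher in central-like cells throughout.

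The collagens and enzymes that SLRPs work with were counted by the same rule, to be read against the 7.42% of all genes called higher and 10.5% called lower at 72 h. In HSCs at 72 h, 4 of 5 fibrillar collagens tested were higher, with a median log2 fold of 2.26. Col1a1 was at 201 CPM in uninjured HSCs and 2151 CPM at 72 h, Col1a2 at 590 and 2824 CPM, Col3a1 at 1244 and 3954 CPM and Col5a2 at 78.7 and 389 CPM. Of 8 tested genes for fibril surface and microfibril partners, 3 were higher (Col6a3, Fbn1 and Eln) and 1 lower, the tenascin Tnxb at 115 and 50.6 CPM. Of 5 tested enzymes of chondroitin and dermatan sulfate chains, 1 was lower, the dermatan sulfate epimerase Dse at 174 and 75.7 CPM. None of 2 tested keratan sulfate and tyrosine sulfation enzymes, 3 proteinases that cut the family and 6 other proteoglycans was called. At 6 weeks, Col1a1 (650 CPM), Col6a3 and the proteinase Mmp2 (146 and 338 CPM) were called higher in HSCs, against 3.4% of all genes tested. In FBs and VSMCs after CCl4 no gene of any of these lists was called. At most 8 genes of a list were tested there, and only 1.32% and 2.46% of all genes were called, so the lack of calls says little. Of 9 other SLRP genes, only Ecm2 reached 50 CPM in FBs, at 190 and 195 CPM, and in VSMCs, at 67.9 and 58.8 CPM, and none did in HSCs.

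The genes whose levels ran most like each SLRP over the 7 groups were found by Pearson correlation of log2(CPM + 1) among 4304 genes of at least 50 CPM in a group. With 7 points that share libraries, depth and cell class, the values are descriptions. The closest gene was Tapbp for Dcn (r = 0.996), Pdgfra for Lum (0.996), Irf9 for Bgn (0.992), Snx5 for Fmod (0.986), Cilp for Ogn (0.986), Ebf1 for Aspn (0.994), Rnaset2a for Prelp (0.997), Gm2a for Omd (0.989) and Smoc2 for Podn (0.997). Next came Glmp and Sdf4 for Dcn, Fbln7 and Fam114a1 for Lum, Rgl1 and Tmem106b for Bgn, Cxxc5 and Gabarap for Fmod, Arl6ip5 and Rnft1 for Ogn, Rcan2 and Mrgprf for Aspn, Hs3st3a1 and B2m for Prelp, Arl4a and Gulp1 for Omd, and Gpm6b and Ackr4 for Podn.

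Smart-seq2 gave replicates. On plates 1 to 5, 1700 wells passed filters and were split by the same markers into 819 FBs and 881 VSMCs, with 50 near the boundary. Reads were summed over the wells of 1 mouse on 1 plate (a portion), giving 5 uninjured, 5 BDL and 4 CCl4 portions of each class, with 9 to 118 wells in each. Every plate held 1 uninjured portion, so the injured portions of a plate were set against the same one and are not independent in counts of direction. Such counts were made for the SLRPs only, without a share over all genes. The labels do not say whether same-named mice on several plates are the same animal, so p-values measure the spread between portions, which may be technical. Counts were tested with edgeR's quasi-likelihood test with plate as a covariate, two-sided, with Benjamini-Hochberg adjustment over all genes.

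None of the 9 SLRPs was called at an adjusted p under 0.05 in either class after BDL or CCl4, or for the difference of a change between FBs and VSMCs. Few other genes were: 0.0257% of genes in FBs after BDL, 0.0193% in FBs after CCl4, 0.00697% in VSMCs after BDL and 0.0% in VSMCs after CCl4, and 0.0242% and 0.0121% for the differences after BDL and CCl4. In the same order, 1325, 688, 961, 464, 839 and 727 genes had an unadjusted p under 0.05, and DESeq2 called 714, 397, 431, 267, 225 and 250 genes, or 4.59%, 2.55%, 3.0%, 1.86%, 1.36% and 1.51% of those tested. DESeq2 called 1 SLRP, Ogn in VSMCs after BDL.

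Ogn in VSMCs after BDL had the smallest p of the SLRPs. The uninjured portions of plates 1 to 5 were at 645, 572, 674, 257 and 359 CPM. The BDL portions were at 102 and 50.8 on plate 1, 181 and 107 on plate 2 and 204 on plate 4. The CCl4 portions were at 357 and 139 on plate 3 and 428 and 351 on plate 5. All 5 BDL portions were lower than the uninjured portion of their plate and lower than every other uninjured portion, while the CCl4 portions overlapped the uninjured ones. How many of all genes were separated in this way was not counted. The log2 fold after BDL was −1.94 (SE 0.486), with an edgeR adjusted p of 0.50 and an unadjusted p of 0.00168. The DESeq2 adjusted p was 0.00258, and edgeR gave 2.57e-07 with no filter on low counts and 0.0452 without the uninjured portion of plate 4. Without plate as a covariate it was 0.0568, and over all other alternatives the adjusted p lay between 0.0539 and 1. In simulated VSMC data with 4-fold changes and each gene's own dispersion, DESeq2 recovered 166 of 200 changed genes and made 191 false calls. There edgeR recovered 123 and made 12 false calls. With all genes at 1 shared dispersion, DESeq2 recovered 83 and made 35 false calls, while edgeR recovered 13 and made 1. The simulated data held no plate differences, unlike the real portions, so they are only a rough guide to these calls. Without the filter on low counts, edgeR also called more of all genes, so the smallest of these adjusted p-values carry little weight. In FBs, Ogn was also lower than on its own plate in 5 of 5 BDL portions (log2 fold −0.86, edgeR adjusted p = 0.662), and the difference between the classes was not called (adjusted p = 1).

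Bgn in VSMCs went the other way. The uninjured portions were at 2870, 2397, 2174, 3011 and 3092 CPM on plates 1 to 5. The BDL portions were at 4167 and 4170 on plate 1, 3522 and 3410 on plate 2 and 4839 on plate 4. The CCl4 portions were at 3972, 2577, 2635 and 4957. The BDL portions did not overlap the uninjured ones, being higher in 5 of 5, but the log2 fold of 0.64 (SE 0.214) had an edgeR adjusted p of 0.605. The share of all genes without overlap was not counted, so the separation has no background to be read against. In FBs the log2 fold of Bgn was 0.19, and the difference between FBs and VSMCs was −0.52 (unadjusted p = 0.0488, edgeR adjusted p = 0.970).

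In FBs, Fmod and Prelp had the lowest p after BDL. Fmod was at 1094, 1098, 1023, 751 and 489 CPM in the uninjured portions of plates 1 to 5 and at 382, 85.8, 910, 585 and 643 in the BDL portions of plates 1, 1, 2, 2 and 4. It was lower than on its own plate in 5 of 5, though the groups overlapped, and the log2 fold of −1.13 (SE 0.484) had an edgeR adjusted p of 0.576. Prelp was at 3062, 3079, 2109, 1566 and 2351 CPM in uninjured and 888, 1525, 2484, 1747 and 1424 CPM in BDL portions. Prelp was also lower in 5 of 5, with a log2 fold of −0.74 (SE 0.293) and an edgeR adjusted p of 0.548.

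The remaining log2 folds after BDL in FBs were −0.10 for Dcn, 0.21 for Lum, 0.60 for Aspn, −1.01 for Omd and −0.92 for Podn, all with edgeR adjusted p of 0.647 or more. In FBs the median log2 fold after BDL was −0.74 over the SLRPs and 0.11 over all genes, and 1.03 over 7 fibrillar collagens, of which none was called. In VSMCs it was 0.38 over the SLRPs, 0.07 over all genes and 1.20 over the collagens. After CCl4, the edgeR adjusted p of every SLRP was 1 in both classes. Dcn in FBs was at 22242, 22941 and 30466 CPM (lowest, median and highest) in uninjured portions, 14849, 21797 and 36928 after BDL and 18482, 20702 and 28471 after CCl4. Lum in FBs was lower than on its own plate in 4 of 4 CCl4 portions (log2 fold −0.42), as was Podn (−0.66). How many of all genes were lower in every portion was not counted.

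**Figure D5:**
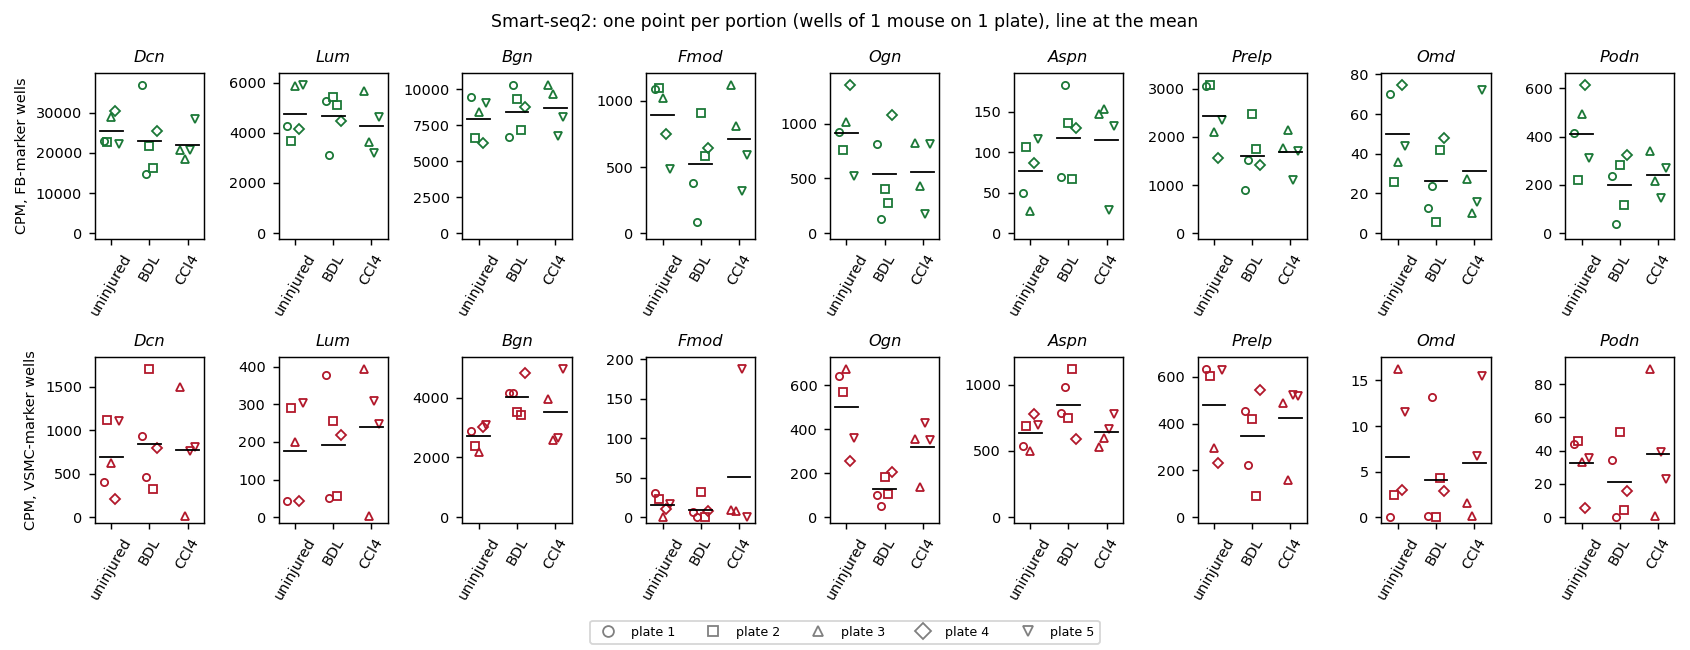
CPM (linear axes) of the 9 SLRPs in FB (top) and VSMC (bottom) portions of Smart-seq2 plates 1 to 5, by condition, with 1 point per portion, its shape marking the plate and a line at the mean. Ogn in VSMCs is lower and Bgn in VSMCs higher in all 5 BDL portions than in the 5 uninjured ones. The share of all genes separated like this was not counted.

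Aspn differed between the assays. In 10X it was at 769 CPM in uninjured FBs and 665 CPM in VSMCs, while in Smart-seq2 the uninjured FB portions were at 27.2 to 116 CPM and the VSMC portions at 498 to 781. FB wells holding at least 5 genes of the Aspn-high FB cluster 5 were few, 6 in uninjured portions, at 74.4 CPM, against 77.2 in the other 235. After CCl4, Aspn in FBs was at 29.0 to 153 CPM, higher than on its own plate in 3 of 4 portions (log2 fold 0.76, edgeR adjusted p = 1). Leaving out 1 portion moved that log2 fold between −0.46 and 2.5, so its direction was not settled. Of the other SLRPs, 7 were higher in FBs than in VSMCs in 14 of 14 portions and Ogn in 13 of 14, the exception being the first CCl4 portion of plate 5 (172 and 428 CPM). Dcn was at 14849 to 36928 in FB portions and 18.8 to 1702 in VSMC portions over all conditions.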

How the data were processed

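Hepatic mesenchymal cells were measured by 10X Chromium (5 libraries) and Smart-seq2 (6 plates). For 10X, the authors deposited UMI counts per gene and cell, made with Cell Ranger 2.1.0 on mm10, without normalization. For Smart-seq2, the authors aligned reads with STAR to the mouse genome (mm10) with the eGFP and ERCC spike-in sequences added, counted reads with rpkmforgenes and deposited counts per well, without normalization. The 9 genes and all lists were chosen with earlier results of these data known. All 9 are named in every group, with the 3 genes most like each over the 10X groups and up to 4 genes of a list past the rule.

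Cells were clustered on 2000 variable genes, 10 principal components and 30 neighbours (leidenalg 0.10.2, scikit-learn 1.9.0, SciPy 1.17.1, Python 3.11.15). Doublets were scored but kept. Smart-seq2 portions were tested with edgeR 4.0.16 (TMM, quasi-likelihood) in R 4.3.3, and with DESeq2 1.42.0 as an alternative. All fits were tested on simulated data with known changes and no plate differences. There edgeR recovered fewer of the changes than DESeq2 and made fewer false calls. With all genes at 1 shared dispersion, edgeR recovered almost none of the smaller ones. Plate was a covariate because its portions shared it. Alternatives were other scalings, filters, class cuts and left-out portions. On plate 6 the labels do not say which mouse had which protocol, so it entered no comparison.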

Additional observations from a re-analysis of the deposited data

Results flagged for a closer look

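In 4 of 54 sets of Smart-seq2 portions (1 gene, class and condition each), a single portion lay far from the others. For normally distributed values, chance alone gives about 1 in 20 such sets. Levels near 0 are skewed and portions come from different plates, so the rate here may be higher and was not measured. In FBs after CCl4, Aspn was at 29.0 CPM in the first CCl4 portion of plate 5 (113 wells), against 132 to 153 CPM in the other 3. In that portion, 28 wells held 3 or more mesothelial markers, and their part in the value was not tested. In VSMCs after BDL, Fmod was at 31.9 CPM in the first BDL portion of plate 2 (54 wells), against 0.112 to 7.46 CPM in the other 4. In VSMCs after CCl4, Fmod was at 187 CPM in the first CCl4 portion of plate 5 (49 wells), against 0.527 to 9.18 CPM in the others. Prelp was at 161 CPM in the second CCl4 portion of plate 3 (90 wells), against 490 to 520 CPM in the others.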

How the results depend on the processing

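Of 176 alternative values, over both assays, of the counts of called SLRPs and of the number highest in each class, 165 stayed within 1.5 times the reported value. The Smart-seq2 counts among them were all 0 in the main fits, where edgeR called few genes of any kind. Those that stayed at 0 therefore say little. With the mean over cells or after thinning to 2000 UMIs, 0 SLRPs were called in FBs after CCl4 in place of 1, since Aspn lay between 1.91-fold and 2.20-fold lower over all settings of all FBs. The mean over cells gave 5 SLRPs highest in FBs, 1 in VSMCs and 3 in HSCs. In HSCs at 72 h, 2 were called in place of 1 without doublets, as Prelp joined Dcn (Prelp was 1.78-fold to 2.01-fold and Dcn 2.16-fold to 2.41-fold lower over the settings). A fold of 1.5 gave 2 at 72 h and 1 in VSMCs in place of 0. In Smart-seq2 VSMCs after BDL, DESeq2 called 1 SLRP and edgeR without a filter on low counts 1, and leaving out 1 portion gave 0 to 1. These were calls of Ogn, whose log2 fold lay between −2.51 and −1.22 when a portion was left out. Where no cause is given here, the cause was not tested. Counting depth limited Omd everywhere and Fmod and Aspn in HSCs.

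Of 1080 alternative fits of the 54 Smart-seq2 log2 folds, 83 changed sign, none of them past the threshold, and 31 of the 54 were touched. With the pairing by plate dropped (no plate as a block), these turned: in FBs after BDL, Lum (−0.0074), in VSMCs after BDL, Omd (−0.67), in VSMCs after CCl4, Dcn (0.21) and Lum (0.49), in the class difference after BDL, Fmod (−0.079), Omd (−0.26) and Podn (−0.49), and in that after CCl4, Dcn (−0.36) and Fmod (−2.0). Dropping the block changed no call of an SLRP, while the genes called of all tested went from 4, 3, 1 and 0 (FBs after BDL and CCl4, then VSMCs) to 29, 51, 40 and 0, and without a filter on low counts they were 297, 122, 150 and 9. Without wells near the boundary, these turned: in FBs after CCl4, Bgn (−0.0069), in VSMCs after BDL, Dcn (−0.86) and Lum (−2.01), in VSMCs after CCl4, Dcn (0.0034), Lum (0.27), Fmod (−0.36) and Prelp (0.080), and in the class difference after BDL, Dcn (1.16), Lum (2.33) and Prelp (0.40). With wells filtered on log10 values, Omd turned in the difference after BDL (−0.82), Dcn (−0.029) and Fmod (−0.023) in that after CCl4, and Prelp in VSMCs after CCl4 (0.023).

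Leaving out 1 portion at a time gave log2 folds of both signs for the following. In FBs after BDL, Dcn ranged from −0.35 to 0.026. In FBs after CCl4, Aspn ranged from −0.46 to 2.5, Bgn from −0.25 to 0.28, Dcn from −0.52 to 0.18, Fmod from −0.29 to 0.12 and Omd from −1.15 to 0.071. In VSMCs after BDL, Omd ranged from −0.029 to 4.09 and Podn from −1.14 to 0.27. In VSMCs after CCl4, Dcn ranged from −2.59 to 0.31, Fmod from −0.45 to 3.46, Lum from −2.60 to 0.36, Ogn from −1.42 to 0.15, Podn from −2.82 to 0.49 and Prelp from −0.53 to 0.17. In the class difference after BDL, Aspn ranged from −0.021 to 0.50, Lum from −0.65 to 0.14, Omd from −0.20 to 1.52, Podn from −0.22 to 0.99 and Prelp from −0.57 to 0.28. In that after CCl4, Dcn ranged from −0.85 to 0.86, Fmod from −0.76 to 1.52, Lum from −1.37 to 0.29, Ogn from −0.43 to 0.52, Omd from −1.15 to 0.56, Podn from −1.26 to 0.57 and Prelp from −0.86 to 0.026.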

Other observations

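Plate 6 of Smart-seq2 entered no comparison, and its wells are given as values. The wells of Uninjured 2 and Uninjured 3 with at least 4 HSC markers (154 and 158 wells) were at 48955 and 54492 CPM for Dcn, 8649 and 10096 CPM for Bgn, 7153 and 6799 CPM for Prelp and 2627 and 2764 CPM for Lum. The sparse SLRPs were low in the same wells, with Podn at 90.7 and 123 CPM, Ogn at 59.1 and 54.4 CPM, Omd at 2.15 and 1.17 CPM, Aspn at 0.309 and 0.0272 CPM and Fmod at 0.0736 and 0.123 CPM. Uninjured 1 had 12 such wells and 41 others, and the 41 others were at 10821 CPM Dcn, 864 CPM Fmod, 823 CPM Ogn and 725 CPM Aspn. The wells rich in HSC markers thus held the most Dcn, Bgn and Prelp of the plate and the least Fmod and Aspn, apart from the 12 wells of Uninjured 1, which were at 6646 CPM Dcn, 671 CPM Fmod and 735 CPM Aspn.

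Among the FB clusters of 10X, Fmod in cluster 6 (Cxcl14, Apod, Kcnk2) had 15 UMIs in uninjured liver and 92 after 6 weeks of CCl4, or 6.20 and 104 CPM, while its level over all FBs was 144 and 142 CPM. With 1 library per condition this difference has no replicate check.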
